A study of Mus musculus with 4 samples.

Results

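The 8 T-cell stemness and quiescence genes Tcf7, Lef1, Klf2, Klf3, S1pr1, Il7r, Bach2 and Slamf6 were followed through the immune infiltrate of an experimental glioma. They were chosen by symbol, and all 8 were among the 31253 genes of both the WT and the CaMKK2 KO table. The measurements came from live CD45+ leukocytes of C57Bl/6 mice, sorted from the tumor-bearing hemisphere on day 14 after CT2a glioma cells were implanted into the brain. The groups were 4 WT mice and 4 CaMKK2 KO mice, which lack calmodulin-dependent kinase kinase 2, a calcium-responsive kinase, in the whole body, so that no cell type was targeted. A hashtag antibody marked each mouse, and all 4 WT mice were run on 1 10x channel and all 4 CaMKK2 KO mice on another, so genotype and channel cannot be told apart. The question the genotypes address is whether host CaMKK2 shapes the phenotype of the tumor-infiltrating leukocytes, and these genes bear on how naive, memory or stem-like the lymphocytes look.

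Naive and memory T cells keep a set of transcription factors that hold them in a resting, self-renewing state, and effector and terminally exhausted T cells switch this set off. TCF1, the product of Tcf7, and its relative LEF1 bind DNA downstream of Wnt signalling and in T-cell development, KLF2 holds T cells in quiescence and turns on genes for homing, KLF3 is a repressor of the same family, and BACH2 represses effector genes. Among the surface proteins, S1PR1 lets lymphocytes leave tissue along a gradient of sphingosine-1-phosphate, IL7R is the alpha chain of the receptor for the survival cytokine IL-7, and SLAMF6 is a receptor of the SLAM family used to mark precursor-exhausted CD8 T cells. None of these genes belongs to T cells alone, and B cells, NK cells and myeloid cells use several of them.

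In the mouse build mm10, with GENCODE M21 gene models, Tcf7 spans chr11:52252371-52283014 on the minus strand, Lef1 spans chr3:131110471-131224356 on the plus strand, and Klf2 spans chr8:72319033-72321656 on the plus strand. Klf3 spans chr5:64803388-64832901 on the plus strand, and S1pr1 spans chr3:115710433-115715072 on the minus strand. Il7r lies at chr15:9505788-9530176 on the minus strand, Bach2 at chr4:32238804-32586108 on the plus strand, and Slamf6 at chr1:171917515-171953170 on the plus strand. RefSeq promoter windows were at hand for 7 of the 8 genes. The 250 bases before the start are shown for Slamf6 and Bach2, which differed between genotypes in opposite directions in classical monocytes, and for Klf2, which had a mean of at least 43.6 CPM (UMIs of the gene per 1000000 UMIs) in every class of cells. The Bach2 window precedes a RefSeq start that lies inside the gene span given above. The end of the Klf2 window also runs into the gene span given above, and 29 of its bases lie in GENCODE exons. The windows are written 5′ to 3′ along the gene, in build GRCm38.p6, for Slamf6 at chr1:171917212-171917461, for Bach2 at chr4:32417185-32417434 and for Klf2 at chr8:72318812-72319061. Capitals mark the TCF/LEF motif CTTTGA or its reverse complement TCAAAG.
Slamf6: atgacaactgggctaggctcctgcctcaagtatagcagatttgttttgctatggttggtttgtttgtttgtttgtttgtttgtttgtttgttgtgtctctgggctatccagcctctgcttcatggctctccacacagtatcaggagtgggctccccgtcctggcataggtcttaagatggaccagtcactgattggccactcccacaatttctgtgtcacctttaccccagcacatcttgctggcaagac
Bach2: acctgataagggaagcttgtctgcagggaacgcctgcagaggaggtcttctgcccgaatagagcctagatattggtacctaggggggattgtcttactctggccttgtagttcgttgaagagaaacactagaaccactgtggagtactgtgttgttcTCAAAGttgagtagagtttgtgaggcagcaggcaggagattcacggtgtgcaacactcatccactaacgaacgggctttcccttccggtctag
Klf2: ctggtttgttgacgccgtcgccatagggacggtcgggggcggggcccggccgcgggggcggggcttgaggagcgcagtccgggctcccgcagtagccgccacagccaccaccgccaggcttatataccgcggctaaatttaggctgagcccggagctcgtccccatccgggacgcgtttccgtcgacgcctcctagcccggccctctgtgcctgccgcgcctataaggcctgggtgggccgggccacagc
The Bach2 window held the TCF/LEF letters 1 time, and those of Slamf6 and Klf2 held none. Of 32851 windows of the same length, 13.8% held them on either strand. None of these 3 windows held the FOXO letters TGTTTAC or GTAAACA, found in 3.17% of all windows, or the KLF letters CCACACCC or GGGTGTGG, found in 3.2%. A match describes the letters only.

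After barcodes that carried the hashtags of several mice or of none, outlying cells and candidate doublets were removed, 5050 WT and 5635 CaMKK2 KO cells remained, of 6689 and 7271 barcodes, with 1006 to 1665 cells and 11886048 to 20346223 unique molecular identifiers (UMIs) a mouse. Of the barcodes, 42 occurred in both libraries, and 8 were kept in both. Levels are given as CPM, the UMIs of a gene scaled to a total of 1000000 UMIs of a class of cells in a mouse, and cells were classed by the summed UMIs of marker genes, none of which is one of the 8 genes. Camkk2 was read at 27.7 to 39.0 CPM in WT mice, against 13.3 to 22.6 CPM in the CaMKK2 KO mice, so the groups did not overlap. The T-cell gate took 1525 cells, of which 722 were CD8 T cells, 207 conventional CD4 T cells, 267 Foxp3+ regulatory T cells, 52 gamma-delta T cells and 277 other T cells. The other T cells met the gate of no subset or of several, or had a Cd4 UMI with Ikzf2 and Il2ra but no Foxp3 UMI. The last group, 16 WT and 77 CaMKK2 KO cells, was thus left out of the conventional CD4 T cells. Mouse WT 1 stood apart with 34 T cells, 17 of them CD8 T cells and none a conventional CD4 T cell, while the other mice had 130 to 309 T cells. WT 2, WT 3 and WT 4 had 11, 11 and 8 conventional CD4 T cells and the CaMKK2 KO mice 25, 86, 30 and 36. The gamma-delta sums held 1 to 11 cells a mouse, so means over mice of this class rest on few cells. In sums over a class, fewer cells that express a gene and less RNA per cell cannot be told apart.

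The 8 genes did not share a pattern over the classes. Tcf7 and Lef1 were read in T cells and NK cells, Klf2 and Klf3 were high in non-classical monocytes and microglia, S1pr1 and Bach2 were highest in B cells, Il7r in gamma-delta and regulatory T cells, and Slamf6 in conventional CD4 T cells and B cells. CD8 T cells, the largest T-cell subset, were low for all 8 genes among the T-cell subsets except Tcf7 and Bach2, which were lower still in regulatory T cells. Neighbours in the order of classes overlapped over the mice for every gene, with 1 exception for Il7r given below.

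**Figure D1:**
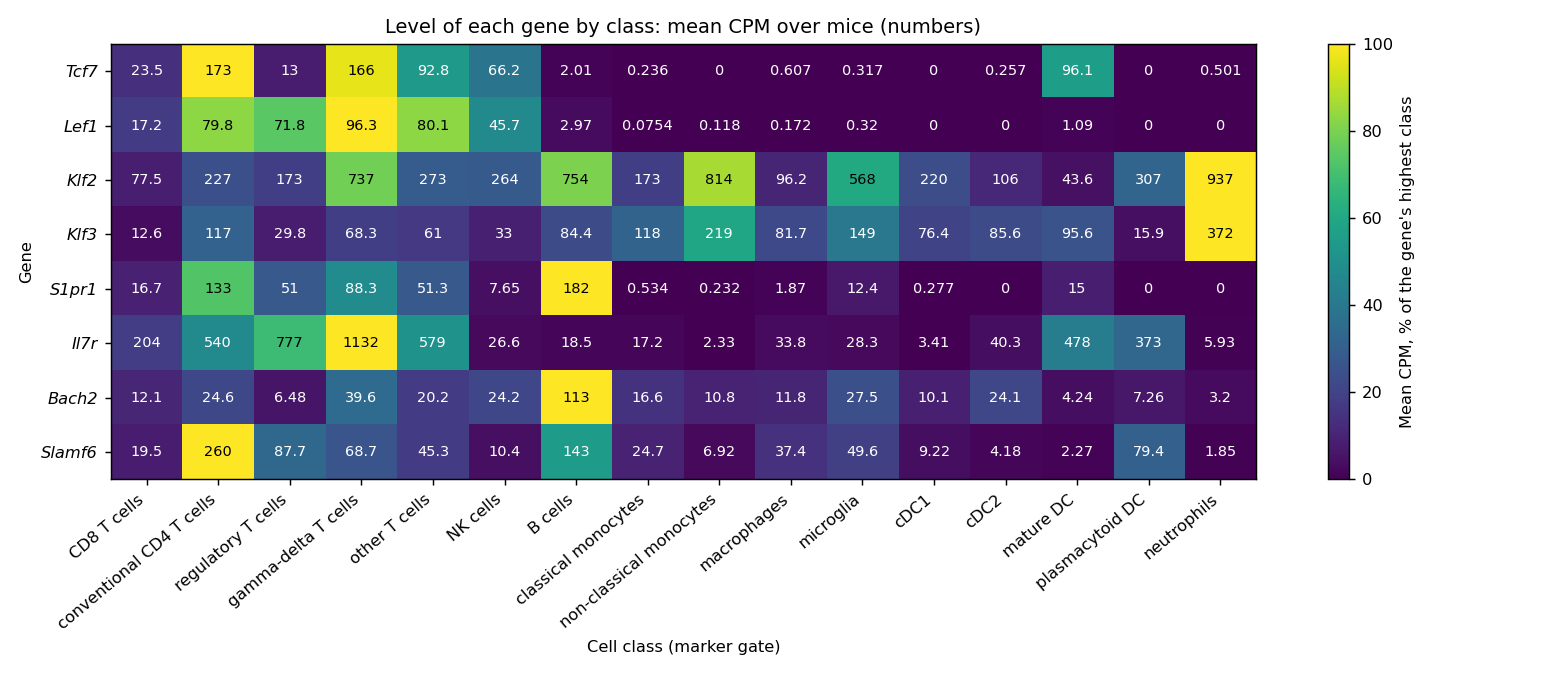
Each cell gives the mean CPM over mice of a gene (rows) in a cell class (columns), and the color gives that mean as a percentage of the gene's highest class. Tcf7 and Lef1 are brightest in T-cell subsets, but Tcf7 is dark in CD8 and regulatory T cells and Lef1 in CD8 T cells. Both are intermediate in NK cells and dark in the myeloid columns apart from Tcf7 in mature DC. Klf2 and Klf3 are bright in non-classical monocytes and in neutrophils, whose means rest on 64 cells in 7 mice.

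Tcf7 was highest in conventional CD4 T cells, at 173 ± 124 CPM (SD, n = 7), and gamma-delta T cells, at 166 ± 98.0 CPM (SD, n = 8). It stood at 92.8 ± 65.6 CPM in other T cells, 66.2 ± 18.1 CPM in NK cells, 23.5 ± 19.3 CPM in CD8 T cells and 13.03 ± 12.2 CPM in regulatory T cells (SD, n = 8 each). In the 1914 classical monocytes only 4 Tcf7 UMIs were counted, and none in the 318 non-classical monocytes or the 131 cDC1. Mature DC, the Ccr7+ migratory state of dendritic cells, were the exception among myeloid classes, with 96.1 ± 31.6 CPM (SD, n = 8) and a range of 44.4 to 140 CPM over the mice. All 8 mice had Tcf7 UMIs in this class, while its Lef1 level was 1.09 ± 2.04 CPM and the summed T-cell marker list lay at 0.00 to 39.6 CPM. WT 1 had only 3 mature DC, beside 16 to 35 in the other mice, so its values rest on few UMIs.

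Lef1 was read at 96.3 ± 57.9 CPM in gamma-delta T cells, 80.1 ± 43.7 CPM in other T cells, 79.8 ± 68.7 CPM (n = 7) in conventional CD4 T cells and 71.8 ± 22.5 CPM in regulatory T cells (SD, n = 8 unless given). These 4 classes overlapped over the mice, so their order is not resolved. NK cells had 45.7 ± 5.79 CPM and CD8 T cells 17.2 ± 16.5 CPM. Regulatory T cells thus held Lef1 at a level near that of conventional CD4 T cells and held Tcf7 well below it.

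Klf2 was the most widely spread of the genes, with a lowest mean of 43.6 ± 20.2 CPM in mature DC. Non-classical monocytes had 814 ± 339 CPM, B cells 754 ± 216 CPM and microglia 568 ± 172 CPM. Gamma-delta T cells lay at 425 to 1386 CPM over the mice. CD8 T cells, at 77.5 ± 62.4 CPM, lay next to the bottom. Klf3 was 219 ± 96.4 CPM in non-classical monocytes and was lowest in CD8 T cells, at 12.6 ± 8.19 CPM. Microglia had the steadiest Klf3 level, 149 ± 9.78 CPM with a range of 134 to 164 CPM. The neutrophil means were the highest for both genes, 937 ± 635 CPM for Klf2 and 372 ± 298 CPM for Klf3 (SD, n = 7), but they came from 64 cells, with 1 to 3 cells in 3 of the mice. With the UMIs of all mice pooled, Klf2 was 422 CPM in neutrophils and 850 CPM in non-classical monocytes, so its first place was lost, and Klf3 was 223 and 193 CPM.

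Bach2, a repressor that B cells need for class switching, was highest in B cells at 113 ± 26.9 CPM, and no other class had a mean above 39.6 CPM. The S1P receptor S1pr1 was highest in B cells too, at 182 ± 74.4 CPM, followed by conventional CD4 T cells at 133 ± 130 CPM (n = 7) and gamma-delta T cells at 88.3 ± 73.8 CPM. In cDC2, plasmacytoid DC and neutrophils no S1pr1 UMI was counted. Of the WT cDC2, 0 of 230 thinned cells had an S1pr1 UMI, which allows a share of up to 1.304% (counting error only).

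Il7r was highest in gamma-delta T cells, at 1132 ± 540 CPM, and regulatory T cells, at 777 ± 262 CPM, with 579 ± 204 CPM in other T cells and 540 ± 201 CPM (n = 7) in conventional CD4 T cells. The gamma-delta values ran from 96.0 CPM in WT 3, with 3 cells, to 1835 CPM in CaMKK2 KO 2, with 11 cells. Mature DC had 478 ± 185 CPM and plasmacytoid DC 373 ± 96.3 CPM (n = 7). CD8 T cells followed with 204 ± 47.3 CPM. Here the order broke, since the lowest CD8 value of 151 CPM was above the highest of the next class, cDC2, at 68.7 CPM. Il7r thus divided the T-cell subsets and both of these dendritic classes from NK cells, at 26.6 ± 12.2 CPM, B cells and most myeloid classes.

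Slamf6 was highest in conventional CD4 T cells, at 260 ± 128 CPM (n = 7), then in B cells, at 143 ± 53.3 CPM, regulatory T cells, at 87.7 ± 44.9 CPM, and plasmacytoid DC, at 79.4 ± 52.9 CPM (n = 7). CD8 T cells, in which SLAMF6 protein marks the precursor-exhausted state, had 19.5 ± 21.9 CPM, with 71.2 CPM in WT 1 and 2.43 to 23.8 CPM in the other 7 mice. Microglia and macrophages had 49.6 ± 13.5 and 37.4 ± 14.7 CPM.

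Over 86 sums of a mouse and a class with at least 20 cells, in 15 classes, S1pr1 was most like the mean of the other 7 genes (Pearson's r of 0.727 between standardised log2(CPM + 1) values), and Klf3 was the least like it (r of −0.249). Among 7093 other genes, those most like the mean of the 8 were Rbm5 (r of 0.738), Tnrc6b (0.737), Tecpr1 (0.731), Cmah (0.720) and Ets1 (0.712), followed by Gimap6, Grap and Numa1. These points share mice and differ in depth and class, so the correlations describe the sums and carry no test.

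Thinned to 2000 UMIs, a conventional CD4 T cell had a UMI of 2.52 of the 8 genes on average in WT (29 cells) and 1.62 in CaMKK2 KO mice (176 cells). For CD8 T cells these means were 0.556 (390 cells) and 0.538 (331 cells), and 62.6% and 62.5% of the cells had none. Macrophages, 1759 and 1285 cells had 0.414 and 0.456. For Tcf7, the thinned share of macrophages with a UMI was 0.0569% in WT and 0 of 1285 in CaMKK2 KO mice, which allows up to 0.233%. In the same draw the share in CD8 T cells was 3.08% and 2.72%, with median depths of 10724 and 12301 UMIs in CD8 T cells and 16190 and 16323 in macrophages. Without thinning these shares were 10.3% and 5.12% of CD8 T cells and 0.625% and 0.622% of macrophages.

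Between T-cell subsets, all 8 genes were lower in CD8 than in conventional CD4 T cells of the same mice. In this comparison 13.5% of 9076 genes passed the threshold, an adjusted p under 0.05 in the quasi-likelihood test of edgeR with Benjamini-Hochberg adjustment, and 8.70% passed as lower. The median log2 difference of the 8 genes was −2.70, beside −0.11 over all genes. Slamf6 differed most, with −4.38 (SE 0.23, edgeR adjusted p = 1.51e-19), followed by S1pr1 with −3.38 (SE 0.37, edgeR adjusted p = 1.01e-09) and Tcf7 with −3.18 (SE 0.26, edgeR adjusted p = 2.20e-13). Klf3 differed by −2.97, Lef1 by −2.44, Bach2 by −1.78, Klf2 by −1.63 and Il7r by −1.41. For Slamf6 the 7 mice with both subsets had 126 to 459 CPM in conventional CD4 and 2.43 to 23.8 CPM in CD8 T cells, without overlap. Scaling by TMM or DESeq2 moved the median of all genes by 0.16 or 0.15, and the 8 calls held under every alternative that could be fitted.

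Regulatory T cells differed from conventional CD4 T cells in 6 of the 8 genes, with 5 lower, where 11.0% of 7349 genes passed in either direction and 4.23% as lower. Tcf7 was 13.03 ± 12.2 CPM in regulatory T cells (0.00 to 31.8 CPM) and 24.6 to 392 CPM in conventional CD4 T cells, a log2 difference of −4.04 (SE 0.38, edgeR adjusted p = 6.13e-10). Bach2 differed by −2.13 (SE 0.59, edgeR adjusted p = 0.0127), Klf3 by −1.87, Slamf6 by −1.69 and S1pr1 by −1.09 (SE 0.36, edgeR adjusted p = 0.0455). The regulatory side of Tcf7 and Bach2 was near 0, with 16 and 11 UMIs in all 267 regulatory T cells. Bach2 had 49 UMIs in conventional CD4 T cells and reached the 50 UMIs for a test only over both classes. Il7r was higher, by 0.44 (SE 0.13, edgeR adjusted p = 0.0223), and Lef1 (−0.04, SE 0.27) and Klf2 (−0.20, SE 0.26) did not pass. The S1pr1 call held in 8 of 17 alternatives, that of Il7r in 10 of 17 and that of Bach2 in 12 of 13. S1pr1 turned to 0.14 with at least 20 cells per mouse, which no WT sum of conventional CD4 T cells had. It was lost without KO 1 (0.0599), KO 4 (0.101), WT 2 (0.184), WT 3 (0.0613) or WT 4 (0.342), adjusted p by edgeR. The Il7r call was lost without KO 1 (0.0537), KO 2 (0.182), KO 3 (0.0875) or WT 3 (0.0667), and that of Bach2 without KO 1 (0.0715). DESeq2 called neither S1pr1 nor Il7r, S1pr1 was also lost with a stricter gate (0.62) and at 200 UMIs (0.102), and Il7r with outlying cells kept (0.432) and TMM scaling (0.0509).

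NK cells, which share cytotoxic genes with CD8 T cells, differed from them in 6 of the 8 genes and were higher for 5, where 30.8% of 10238 genes passed and 16.8% passed as higher. Lef1 was higher by 1.89 (SE 0.25, edgeR adjusted p = 7.13e-06), Klf2 by 1.83 (SE 0.31), Tcf7 by 1.82 (SE 0.22), Klf3 by 1.32 (SE 0.20) and Bach2 by 1.24 (SE 0.25). Il7r went the other way, at 10.2 to 43.5 CPM in NK cells and 151 to 304 CPM in CD8 T cells, a log2 difference of −2.96 (SE 0.14, edgeR adjusted p = 2.36e-12). S1pr1 (−0.69, SE 0.40) and Slamf6 (−0.44, SE 0.32) did not pass. These 6 calls held under every alternative that could be fitted. The T-cell marker list summed to 201 to 352 CPM in NK cells.

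Havcr2 encodes TIM3, an inhibitory receptor of terminally exhausted T cells. Of the CD8 T cells, 391 had a Havcr2 UMI and 331 had none. A mouse had 4 to 77 of the former and 12 to 73 of the latter, so a value of 0.00 CPM can rest on few cells. With Havcr2 UMIs, 7 of the 8 genes were lower than in the CD8 T cells of the same mice without them, where 1.95% of 8715 genes passed and 0.918% passed as lower. The median log2 difference of the 8 genes was −2.58, beside 0.00 over all genes.

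In the Havcr2-negative CD8 T cells of WT 1 to WT 4, Tcf7 was 91.7, 43.4, 46.7 and 65.1 CPM, and in those of CaMKK2 KO 1 to 4 it was 33.1, 114, 11.8 and 25.1 CPM. In the Havcr2-positive cells it was 9.13 CPM in CaMKK2 KO 2, 2.28 CPM in WT 3 and 0.00 CPM in the other 6 mice, so the sides did not overlap. The log2 difference was −5.03 (SE 0.38, edgeR adjusted p = 3.11e-12), and 160 of the 167 Tcf7 UMIs of CD8 T cells lay on the Havcr2-negative side. S1pr1 differed by −3.69 (SE 0.44), Slamf6 by −2.90 (SE 0.34), Klf3 by −2.88 (SE 0.36), Lef1 by −2.28 (SE 0.36) and Klf2 by −1.71 (SE 0.20). Il7r differed least, at 110 to 205 CPM against 151 to 385 CPM and by −0.49 (SE 0.11, edgeR adjusted p = 0.00454), and its sides overlapped. Bach2, at −1.03 (SE 0.35, edgeR adjusted p = 0.16), did not pass. The Havcr2-positive cells were deeper, with a median of 12889 UMIs beside 9995. Of the pathway lists, 6 of 16 tested memory and quiescence genes were lower and none higher, and 9 of 19 effector and exhaustion genes were higher and none lower, a list that contains Havcr2 itself.

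**Figure D2:**
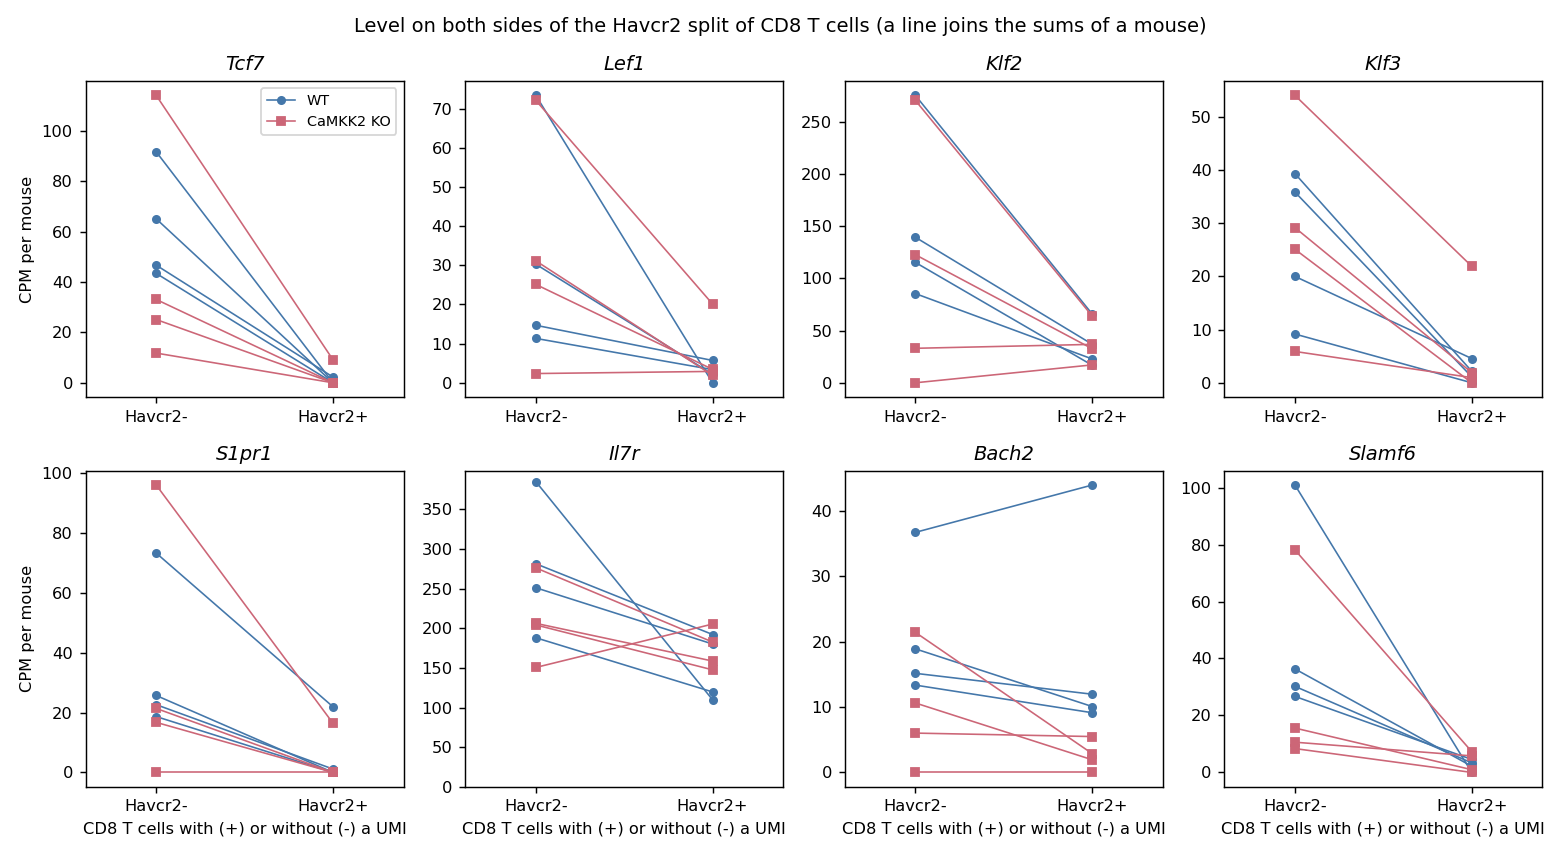
Each panel is a gene, the y axis is CPM, and a line joins the sums of 1 mouse (circles WT, squares CaMKK2 KO) over the CD8 T cells without and with a Havcr2 UMI. Tcf7 lies at 0.00 CPM in the Havcr2-positive cells of 6 mice and is lower there than in the Havcr2-negative cells in all 8. The sums hold 4 to 77 Havcr2-positive and 12 to 73 Havcr2-negative cells a mouse.

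Between genotypes, none of the 8 genes passed in all T cells combined. In that comparison 2.15% of 9809 genes passed with edgeR, and none of the 8 had an unadjusted p under 0.05. DESeq2 called 0 of the 8 and 215 of all genes. Here and below, counts at an unadjusted p have no share of all genes beside them. They cannot be compared with the shares of genes that passed. Tcf7 was 82.9, 41.0, 45.8 and 56.9 CPM in the T cells of WT 1 to WT 4 and 26.2, 82.9, 9.30 and 62.6 CPM in those of CaMKK2 KO 1 to 4, and the groups overlapped. The log2 differences ran from −0.42 for Bach2 (SE 0.32) to 0.62 for Slamf6 (SE 0.33, edgeR adjusted p = 0.383), 4 below and 4 above zero. S1pr1 (0.08) and Il7r (0.07) turned negative under TMM and DESeq2 scaling, while Tcf7 and Klf2 turned positive without KO 3 (0.16 and 0.12). Over all alternatives Klf3 ran from −0.32 to 0.495 and S1pr1 from −0.389 to 0.403. Of the 4 genes above zero, only Slamf6 kept its sign throughout (0.171 to 0.849). For Slamf6 the direction in all T cells was opposite to that in each of its tested subsets, which was −0.91 in CD8, −0.89 in conventional CD4 and −0.52 in regulatory T cells, none of them past the threshold. The subset shares, whose part in this was not tested, did not pass after adjustment. Conventional CD4 T cells made up 3.64% ± 2.59 of the T cells of WT mice, against 22.4% ± 14.5 in CaMKK2 KO mice (SD, n = 4 each, two-sided exact permutation p = 0.0286, the smallest that 4 mice against 4 allow, and 0.143 adjusted over 5 subsets). The share of CD8 T cells was 57.2% ± 6.42 and 36.9% ± 16.6 (exact permutation p = 0.0857, adjusted 0.214).

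In CD8 T cells, edgeR called none of the 8 genes (1.76% of 8715 genes passed), and 2 had an unadjusted p under 0.05. DESeq2 called 0 of the 8 and 102 of all genes. All 8 log2 differences were below zero, with a median of −0.36 beside 0.05 over all genes, but Lef1, Klf3 and S1pr1 turned positive in some alternatives, up to 0.53, 0.16 and 0.35 without KO 3, and Lef1 was 0.24 without WT 1. Bach2 was 38.8, 13.4, 11.1 and 13.3 CPM in WT 1 to WT 4 and 8.99, 5.60, 5.85 and 0.00 CPM in CaMKK2 KO 1 to 4. These groups did not overlap, while the log2 difference of −1.15 (SE 0.42, edgeR adjusted p = 0.183) did not pass. The share of all genes without overlap was not counted in CD8 T cells, so this describes the values of Bach2 only. Tcf7 was 64.7, 16.2, 22.8 and 27.2 CPM in WT, against 10.9, 33.6, 5.31 and 7.29 CPM in CaMKK2 KO mice, which gave a log2 difference of −0.96 (SE 0.44, edgeR adjusted p = 0.321) that passed only without KO 2 (−1.62, edgeR adjusted p = 0.0442). Lef1, Klf2, Klf3, S1pr1 and Il7r lay between −0.02 and −0.37. The thinned share of CD8 T cells with a Tcf7 UMI was 5.97% ± 4.59 in WT and 2.45% ± 1.85 in CaMKK2 KO mice (SD, n = 4 each, exact permutation p = 0.257), and 18.2% ± 19.5 and 6.197% ± 3.63 without thinning (exact permutation p = 0.229). Thinning is 1 random draw: in these shares 17 of 390 WT and 6 of 331 CaMKK2 KO cells had a Tcf7 UMI, and in another draw 12 and 9. The macrophage list lay at 104 to 136 CPM in WT, against 61.7 to 94.8 CPM in CaMKK2 KO CD8 T cells, and the mature DC list at 25.9 to 46.1 and 6.38 to 16.8 CPM. Ccr7, a gene of the mature DC list, alone lay at 25.9 to 31.6 and 2.66 to 15.4 CPM. Both lists moved with the genotype, and their part in these values was not tested.

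As a transcript counterpart of the precursor-exhausted phenotype, a Slamf6 UMI without a Havcr2 UMI was counted among thinned CD8 T cells with a Pdcd1 UMI (the gene of PD1). At 2000 UMIs, a cell without a Havcr2 UMI can still express Havcr2, so the count does not define cells without TIM3. This combination was found in 1 of 4, 1 of 49, 5 of 79 and 1 of 64 cells of WT 1 to WT 4. In CaMKK2 KO 1 to 4 it was found in 0 of 56, 0 of 12, 0 of 55 and 0 of 18 cells, 0 of 141 in all, which allows up to 2.13% of cells with such UMIs at 2000 UMIs a cell (counting error only, mice pooled). At full depth it was found in 4 of 273 CaMKK2 KO and 18 of 326 WT cells. The thinned means were 8.73% ± 11.1 in WT and 0.00% in CaMKK2 KO mice (n = 4 each, two-sided exact permutation p = 0.0286, the smallest possible). These means come from 1 random draw, and the CaMKK2 KO zeros behind this p-value were not all 0 at full depth. The difference did not pass at full depth, where the mice had 22.2%, 2.17%, 7.38% and 4.85% in WT and 0.952%, 3.03%, 1.87% and 0.00% in CaMKK2 KO (exact permutation p = 0.0571). Without any 1 of the CaMKK2 KO mice, which were all at 0, the difference stayed at −8.73 percentage points and the groups of 4 and 3 gave an exact permutation p of 0.171. The WT 1 value rests on 4 cells, and without that mouse the WT mean was 3.31%. By flow cytometry the paper reported the opposite direction for protein. There, SLAMF6-positive TIM3-negative cells were more frequent among PD1-positive CD8 T cells of CaMKK2 KO tumors. RNA and protein were not compared in the same cells.

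In conventional CD4 T cells, 7 of the 8 genes had the 50 UMIs needed for the test and none passed (0.624% of 5129 genes passed with edgeR). Of these 7, 4 had an unadjusted p under 0.05. DESeq2 called 0 of them and 63 of all genes. Bach2, with 49 UMIs, was not tested. All 7 log2 differences were below zero, with a median of −1.05 beside 0.00 over all genes. S1pr1 was 189, 76.5 and 402 CPM in WT 2, WT 3 and WT 4 and 65.1, 74.1, 13.7 and 111 CPM in CaMKK2 KO 1 to 4, a log2 difference of −1.73 (SE 0.54, edgeR adjusted p = 0.173). Tcf7 was 392, 287 and 106 CPM and 121, 152, 24.6 and 128 CPM, a difference of −1.33 (SE 0.48, edgeR adjusted p = 0.258). Slamf6 was 419, 459 and 169 CPM and 243, 212, 126 and 194 CPM, a difference of −0.89 (SE 0.31, edgeR adjusted p = 0.241). In each of these the groups overlapped, and Klf3 (127 to 268 and 38.3 to 97.1 CPM, −1.21, SE 0.41, edgeR adjusted p = 0.219) did not. The share of all genes without overlap was not counted in this class, which had only 3 WT sums. The 3 WT sums held 8 to 11 cells each, with a median of 5467 UMIs a cell beside 8357 in CaMKK2 KO mice. The T-cell list, at 4290 to 6136 CPM in WT, against 6341 to 7074 CPM in CaMKK2 KO mice, and the macrophage list, at 122 to 363 and 60.7 to 90.6 CPM, moved with the genotype, and their part was not tested.

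Whether the genotype difference itself differed between CD8 and conventional CD4 T cells was tested as an interaction. None of the 8 genes passed (0.879% of 9098 genes passed with edgeR), and 4 had an unadjusted p under 0.05. DESeq2 called 0 of the 8 and 52 of all genes. S1pr1 came nearest, with an interaction of 2.04 (SE 0.60, edgeR adjusted p = 0.0917), meaning a less negative CaMKK2 KO difference in CD8 T cells. It passed without KO 1 (0.011), KO 3 (0.00972) or KO 4 (0.00935), and Klf2, at 1.20 (SE 0.42, edgeR adjusted p = 0.254), passed without KO 4 (0.00102). With genes of at least 10 UMIs tested, both S1pr1 (0.0215) and Klf2 (0.0476) passed. Klf2 also passed with a stricter gate (0.0236) and with classes from clusters (0.0418), adjusted p by edgeR. TMM scaling moved the median of all genes by −0.32 here.

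In regulatory T cells, 6 of the 8 genes were tested and none passed (0.845% of 5565 genes passed with edgeR). An unadjusted p under 0.05 was reached by 2, and DESeq2 called 0 of the 6 and 21 of all genes. Il7r was 1272, 987, 914 and 609 CPM in WT, against 468, 593, 699 and 675 CPM in CaMKK2 KO mice, which gave a log2 difference of −0.55 (SE 0.18, edgeR adjusted p = 0.167) that passed only without WT 4 (−0.74, edgeR adjusted p = 0.043), the mouse that made the groups overlap. Lef1 was 95.4, 72.3, 108 and 79.3 CPM and 58.5, 61.7, 35.2 and 64.7 CPM, without overlap, and its difference of −0.80 (SE 0.29, edgeR adjusted p = 0.235) did not pass. How many of all genes lacked overlap in regulatory T cells was not counted. Klf2, Klf3, S1pr1 and Slamf6 lay between −0.52 and 0.33. The regulatory T-cell list itself lay at 3608 to 4001 CPM in WT, against 2814 to 3107 CPM in CaMKK2 KO mice, and the macrophage list at 146 to 286 and 71.2 to 123 CPM, and their part in these values was not tested.

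The 277 other T cells had no planned test and are described by overlap. Of these, 144 (78 WT, 66 CaMKK2 KO) lay below every subset gate, 93 (16 WT, 77 CaMKK2 KO) had a Cd4 UMI with Ikzf2 and Il2ra but no Foxp3 UMI, and 40 (14 WT, 26 CaMKK2 KO) met the Cd8 gate beside a Cd4 or Foxp3 UMI. Tcf7 was 130, 133, 151 and 190 CPM in WT, against 31.2, 34.4, 17.1 and 55.5 CPM in CaMKK2 KO mice. Lef1 was 118, 150, 86.8 and 110 CPM and 22.3, 38.5, 55.7 and 59.8 CPM. For these 2 of the 7 genes with at least 50 UMIs the groups did not overlap, as for 8.61% of 5635 genes. The T-cell list summed to 2879 to 5215 CPM in WT, against 5794 to 6603 CPM in CaMKK2 KO mice, Cd4 to 0.00 to 99.9 and 147 to 275 CPM, and the mature DC list, which contains Ccr7, to 33.0 to 59.2 and 6.43 to 26.7 CPM, each without overlap. In the 144 cells below every gate, looked at after these values were seen, Tcf7 was 130, 209, 230 and 278 CPM in WT 1 to WT 4 and 56.8, 148, 53.9 and 92.7 CPM in CaMKK2 KO 1 to 4, and the groups overlapped. Lef1 was 118.5, 226, 117 and 141 CPM and 34.1, 52.4, 80.9 and 82.4 CPM in these cells, without overlap. How many of all genes lacked overlap in these cells was not counted. In the 93 cells with a Cd4 UMI, Ikzf2 and Il2ra, Tcf7 was 26.85 CPM in CaMKK2 KO 1. It was 0.00 CPM in every other mouse that had such cells. The part of the make-up of the other T cells in their Tcf7 and Lef1 differences was not tested.

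**Figure D3:**
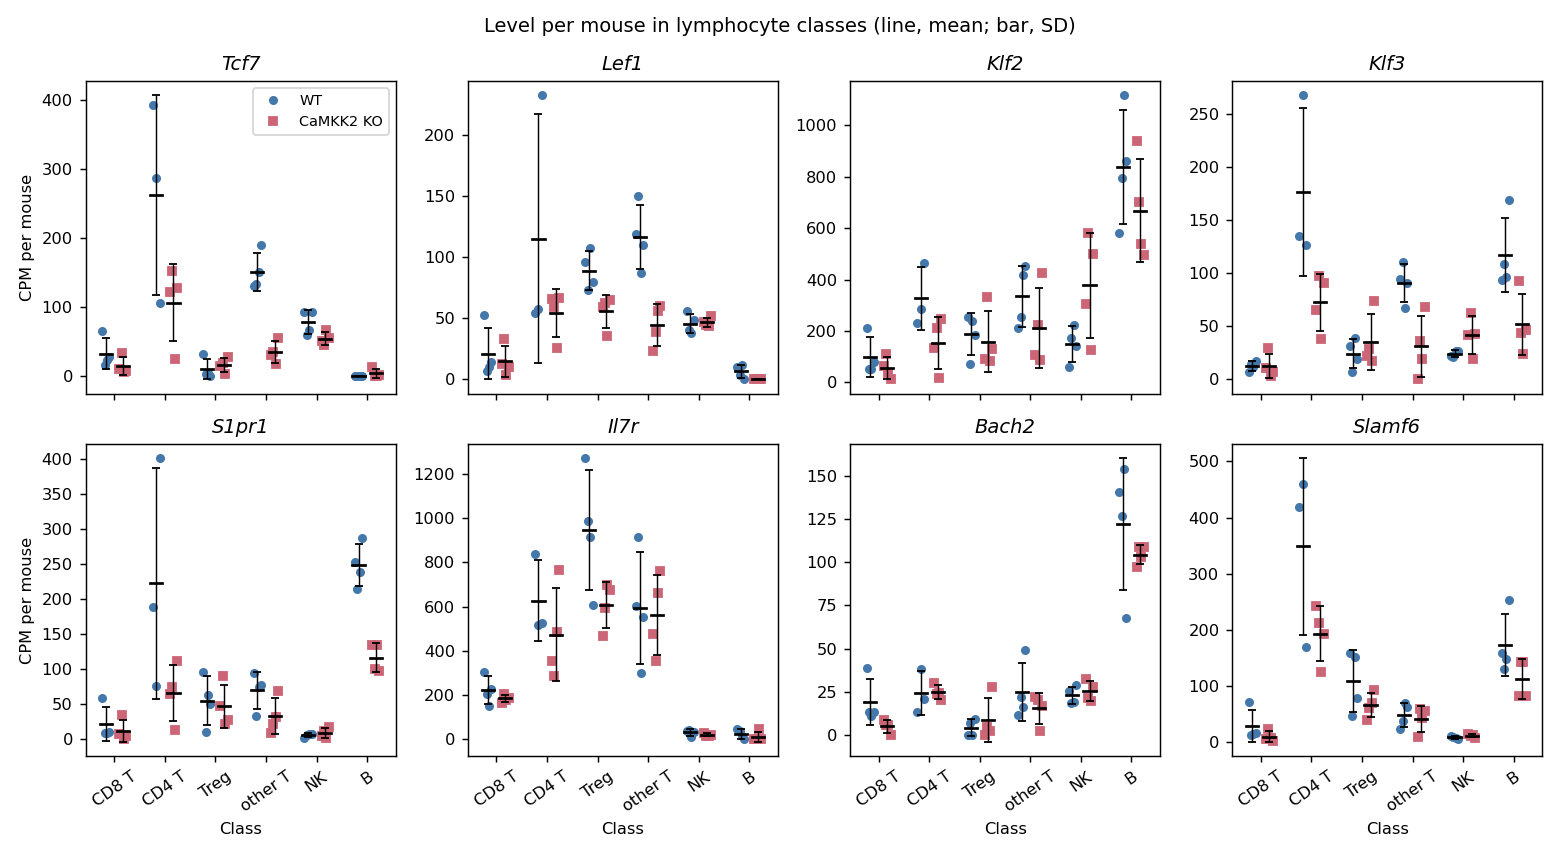
Each panel is a gene, with CPM per mouse on the y axis and 6 lymphocyte classes on the x axis (circles WT, squares CaMKK2 KO, line mean, bar SD). The WT and CaMKK2 KO points of Tcf7 separate in other T cells, at 130 to 190 and 17.1 to 55.5 CPM, and those of S1pr1 in B cells, while most other pairs overlap. The other T cells are a mixed class whose make-up differed between the genotypes.

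In NK cells none of the 8 genes passed (3.00% of 9502 genes passed with edgeR), and 4 had an unadjusted p under 0.05. DESeq2 called 0 of the 8 and 264 of all genes. Klf2, the quiescence factor, was 61.2, 172, 225 and 141 CPM in WT 1 to WT 4 and 303, 581, 127 and 500 CPM in CaMKK2 KO 1 to 4. The value of CaMKK2 KO 3 lay within the WT range, and those of the other 3 lay above it. The log2 difference was 1.32 (SE 0.38, edgeR adjusted p = 0.0827), and it passed without KO 3 (1.62, edgeR adjusted p = 0.00287) and with outlying cells kept (1.51, edgeR adjusted p = 0.0456). Klf3 (0.74, SE 0.28) and Tcf7 (−0.51, SE 0.17) also passed only without KO 3 (edgeR adjusted p = 0.0027 and 0.0246), and Il7r (−0.68, SE 0.31) only without WT 3 (edgeR adjusted p = 0.0368). Lef1 was the steadiest gene, at 37.2 to 55.0 CPM in WT, against 43.4 to 51.3 CPM in CaMKK2 KO mice, which gave a log2 difference of 0.02 (SE 0.14). The classical monocyte list lay at 630 to 914 CPM in WT, against 1126 to 1231 CPM in CaMKK2 KO NK cells, and the macrophage list went the other way, at 109 to 138 and 64.4 to 93.7 CPM. Their part in these values was not tested.

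In B cells, S1pr1 was the 1 gene of 5 tested that passed, where 2.59% of 4368 genes did. It was 253, 214, 239 and 287 CPM in WT 1 to WT 4 and 134, 99.9, 135 and 97.5 CPM in CaMKK2 KO 1 to 4, without overlap. S1pr1 fell by 1.09 on the log2 scale in CaMKK2 KO mice (SE 0.23, edgeR adjusted p = 0.0143). The thinned share of B cells with an S1pr1 UMI was 35.3% of 170 WT and 17.4% of 195 CaMKK2 KO cells, and 49.4% and 34.2% at full depth, although the WT cells were the shallower, with a median of 3553 UMIs beside 4990. The other 4 tested genes were also below zero: Klf3, at 93.7 to 169 and 23.8 to 92.5 CPM, by −1.06 (SE 0.32, edgeR adjusted p = 0.0848, and 0.0187 without KO 1), Slamf6 by −0.53, Klf2 by −0.33 and Bach2 by −0.30. The S1pr1 call was lost with candidate doublets kept (−0.91, edgeR adjusted p = 0.141) and without KO 2 (0.0758), KO 4 (0.054) or WT 2 (0.0537). The B-cell list lay at 5573 to 7974 CPM in WT, against 5682 to 7177 CPM in CaMKK2 KO mice, while the macrophage list did not overlap, at 199 to 262 and 55.5 to 164 CPM; the classical monocyte list lay at 396 to 1123 and 777 to 1361 CPM. Their part in the S1pr1 difference was not tested, and S1pr1 in macrophages was 0.277 to 3.70 CPM.

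In macrophages, Slamf6 was the 1 gene of 6 tested that passed, where 2.73% of 11239 genes did. It was 22.04, 24.8, 32.5 and 24.5 CPM in WT, against 43.2, 49.5, 38.2 and 64.6 CPM in CaMKK2 KO mice, without overlap. Slamf6 rose by 0.90 on the log2 scale (SE 0.18, edgeR adjusted p = 0.028). The thinned share of cells with a Slamf6 UMI was 5.12% of 1759 and 8.56% of 1285 cells, and 30.1% and 47.0% at full depth, while in cDC2, which had little Slamf6, it was 0.870% of 230 WT and 0 of 134 CaMKK2 KO cells thinned (up to 2.24% with a UMI at that depth) and 3.04% and 8.96% at full depth, at median depths of 17093 and 16456 UMIs. S1pr1, at 2.07 to 3.70 CPM in WT, against 0.277 to 1.81 CPM in CaMKK2 KO macrophages, differed by −1.81 (SE 0.49, edgeR adjusted p = 0.078) and passed with DESeq2 (adjusted p = 0.034) and without KO 2 (edgeR adjusted p = 0.0371). The Slamf6 call was lost without KO 2 (0.0761), KO 4 (0.0506), WT 1 (0.0609), WT 2 (0.0775) or WT 4 (0.0912), adjusted p by edgeR.

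Other lists moved with the genotype in macrophages. The classical monocyte list summed to 454 to 1753 CPM in WT, against 1788 to 5616 CPM in CaMKK2 KO mice, the macrophage list to 14140 to 14600 and 10230 to 13670 CPM, and the T-cell list to 10.7 to 20.7 and 22.1 to 62.8 CPM, and none of the 3 overlapped. Of the cells near the macrophage gate of 50 marker UMIs, 117 lay just inside and 81 just outside. The part of these lists in the Slamf6 difference was not tested. Tcf7, at 27 UMIs in all macrophages beside 1781 of Slamf6, and Lef1, at 8, were near 0. In B cells both had 4 UMIs beside 223 of Slamf6.

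In classical monocytes, 2 of the 5 tested genes passed, in opposite directions, where 1.95% of 9596 genes passed. Slamf6 was 10.9, 14.6, 15.0 and 18.9 CPM in WT 1 to WT 4 and 28.2, 36.3, 31.0 and 43.0 CPM in CaMKK2 KO 1 to 4. Bach2 was 25.5, 23.1, 19.4 and 23.0 CPM in WT, against 9.90, 7.27, 12.3 and 12.6 CPM in CaMKK2 KO mice. Neither gene overlapped between the groups. Slamf6 rose by 1.17 on the log2 scale (SE 0.20, edgeR adjusted p = 0.0139), and Bach2 fell by 1.10 (SE 0.22, edgeR adjusted p = 0.0324). The thinned share of cells with a UMI was 2.07% of 627 WT and 6.45% of 1287 CaMKK2 KO cells for Slamf6, and 3.51% and 1.63% for Bach2, at median depths of 11941 and 11499 UMIs. Klf2, Klf3 and Il7r, with log2 differences of 0.22, −0.28 and 0.55, did not pass.

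Both monocyte calls were lost when classes were taken from clusters (edgeR adjusted p = 0.0746 for Slamf6 and 0.103 for Bach2). Slamf6 was lost without KO 2 (0.0508), WT 2 (0.0698) or WT 3 (0.0623), and Bach2 without KO 1 (0.0792), KO 2 (0.0919), WT 2 (0.127), WT 3 (0.0628) or WT 4 (0.0734). The T-cell list, at 10.9 to 17.1 CPM in WT, against 24.4 to 31.7 CPM in CaMKK2 KO classical monocytes, and the NK list, at 3.64 to 7.20 and 7.42 to 11.5 CPM, moved with the genotype, and their part in the Slamf6 difference was not tested. All T cells held Slamf6 at 33.6 to 110 CPM over the mice, and B cells at 82.0 to 253 CPM. Tcf7 and Lef1 summed to 4 and 3 UMIs in the 1914 classical monocytes beside 669 of Slamf6. In B cells they summed to 4 UMIs each beside 223 of Slamf6. The classical monocyte list itself lay at 11900 to 14550 and 10940 to 13980 CPM. Outside the tests, Slamf6 was 35.8 to 76.9 CPM in CaMKK2 KO and 38.5 to 54.6 CPM in WT microglia, which overlapped. In non-classical monocytes Slamf6 was 0.00 to 20.5 CPM in CaMKK2 KO and 0.00 to 5.05 CPM in WT mice. Bach2 there was 0.00 to 12.8 and 0.00 to 34.4 CPM, and both genes overlapped between the groups.

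**Figure D4:**
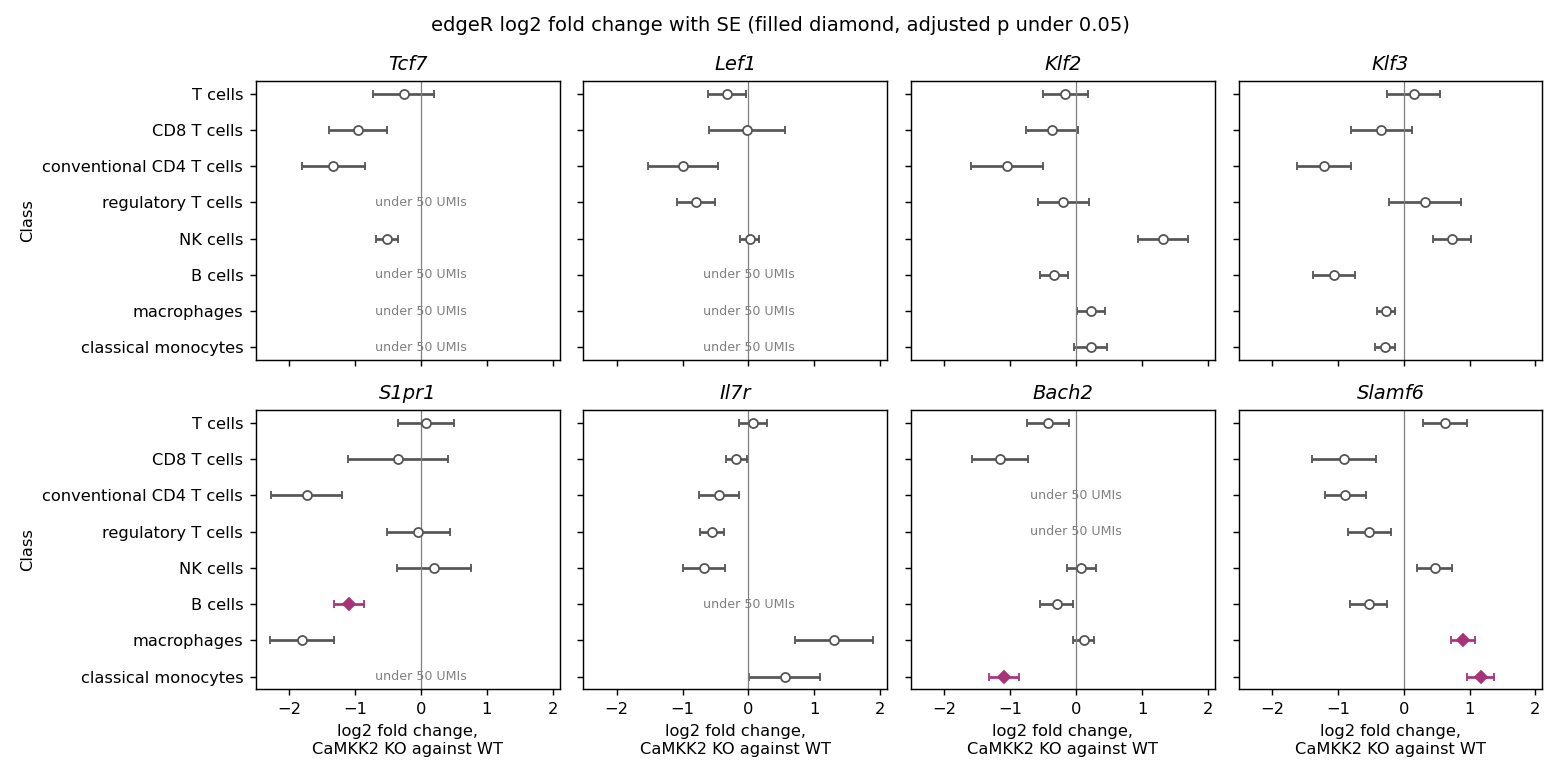
The x axis gives the log2 fold change of CaMKK2 KO against WT with its SE from edgeR for each gene (panels) and class (rows), and filled diamonds mark an adjusted p under 0.05. The 4 diamonds are S1pr1 in B cells (−1.09), Slamf6 in macrophages (0.90) and classical monocytes (1.17), and Bach2 in classical monocytes (−1.10).

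**Figure D5:**
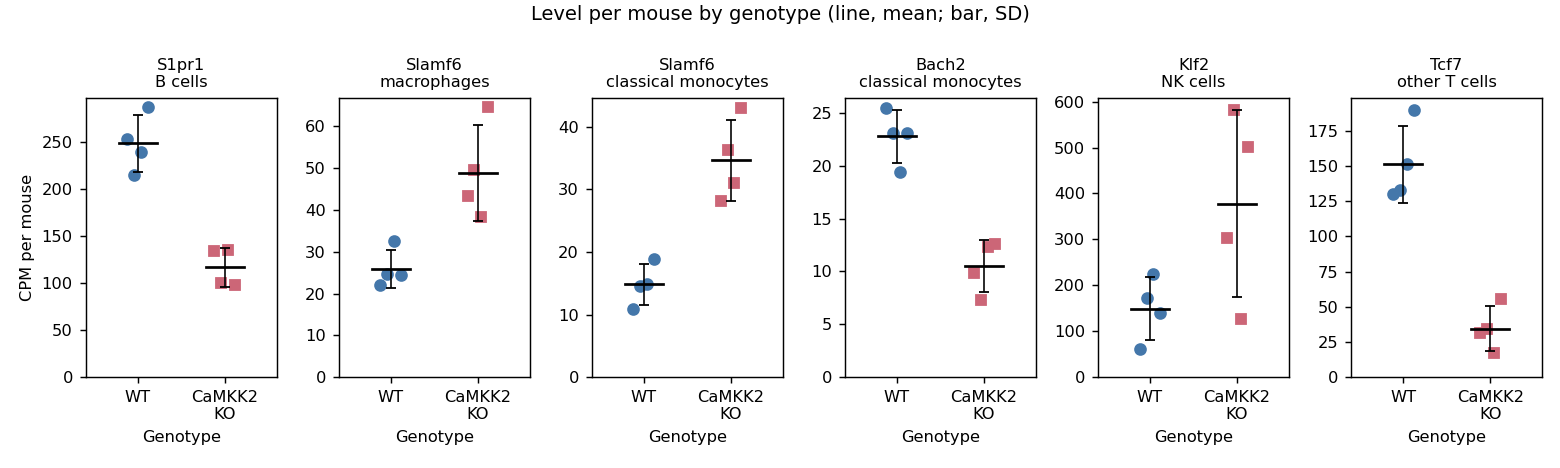
The y axis gives CPM per mouse for 6 pairs of a gene and a class by genotype (circles WT, squares CaMKK2 KO, line mean, bar SD). The panels were chosen after the values were seen. In NK cells the Klf2 value of CaMKK2 KO 3, 127 CPM, lies within the WT values.

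Of the other genes of these pathways, the memory and quiescence list (20 genes, among them Ccr7, Foxo1, Id3 and Bcl2) had 1 of 19 tested genes lower and none higher in CaMKK2 KO T cells, 1 of 16 lower in CD8 T cells and 0 of 12 in conventional CD4 T cells, where 2.15%, 1.76% and 0.624% of all genes passed. Its median log2 differences were −0.14, −0.22 and −0.47, beside 0.08, 0.05 and 0.00 over all genes. Igfbp4, a binding protein for insulin-like growth factors that naive T cells express, was the gene in T cells, at 7.21 to 13.03 CPM in WT, against 0.00 to 1.29 CPM in CaMKK2 KO mice (log2 difference −3.28, SE 0.41, edgeR adjusted p = 4.35e-04). Ccr7, the homing receptor for lymph nodes, was the gene in CD8 T cells, at 25.9, 29.5, 27.1 and 31.6 CPM in WT, against 5.14, 15.4, 2.66 and 12.2 CPM in CaMKK2 KO mice (−2.11, SE 0.36, edgeR adjusted p = 0.00398). Ccr7 is also in the mature DC list, whose sum in these cells was 25.9 to 46.1 CPM in WT and 6.38 to 16.8 CPM in CaMKK2 KO mice. That sum therefore counts Ccr7 again and is not separate from it. None of the 9 tested genes of the S1P and IL-7 pathway list (12 genes, among them S1pr4, Cd69, Jak1 and Stat5b) passed in T, CD8 or conventional CD4 T cells (medians 0.23, 0.14 and 0.03). The effector and exhaustion list had 1, 2 and 2 of 19, 19 and 18 tested genes higher and none lower, with medians of 0.36, 0.34 and 0.75. In conventional CD4 T cells these were the chemokines Ccl3, at 13.5 to 169 and 309 to 731 CPM (2.97, SE 0.51, edgeR adjusted p = 0.00887), and Ccl4, at 54.1 to 359 and 743 to 1778 CPM (2.50, SE 0.44, edgeR adjusted p = 0.0105). In CD8 T cells they were the granzyme genes Gzmb (1.97, SE 0.31, edgeR adjusted p = 0.00221) and Gzma (3.46, SE 0.84, edgeR adjusted p = 0.0417), the latter at 40.4 to 3009 CPM over the CaMKK2 KO mice. Gzmb was also the gene in T cells (1.29, SE 0.26, edgeR adjusted p = 0.0177).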

How the data were processed

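Live CD45+ cells of 4 WT and 4 CaMKK2 KO mice, with hashtag antibodies, were measured by 10x 3′ single-cell RNA-seq. The authors deposited UMI counts per gene and barcode, made per the labels with bcl2fastq 2.20, Cell Ranger 4.0.0 and STAR 2.7.5c on mm10. Barcodes with at least 200 genes were assigned to mice with HTODemux (Seurat 5.3.0, quantile 0.99). Cells beyond 3 median absolute deviations were removed, as were the top-scoring doublet candidates, since the automatic doublet threshold marked too few cells. Classes came from gates on marker UMIs, and the gates were set after the marker distributions were seen. Sums of UMIs over the cells of a class in a mouse were fitted, and genes with at least 50 UMIs were tested with edgeR 4.0.16 (quasi-likelihood, Benjamini-Hochberg over all tested genes). DESeq2 1.42.0, TMM scaling, other filters and gates, and leaving out each mouse were alternatives. Named were the 8 genes and any gene of 3 pathway lists past the threshold between genotypes in T, CD8 or conventional CD4 T cells. Members and lists were chosen with earlier results of these data known. Shares of cells used an exact permutation test over every split of the mice, and cells thinned to 2000 UMIs. Limits for a count of 0 use 3 counts and cover counting error only. In simulated T-cell sums over 9691 genes, edgeR recovered 29.1% of changes of 2-fold and 98.2% of 4-fold, and 6.16% of its calls were false. The changed genes had at least 200 UMIs, and all genes shared 1 fixed dispersion. These rates therefore do not describe genes with fewer UMIs, such as most of the 8 in CD8 T cells. One planned split of the T cells is not reported here. With 1 channel per genotype, p-values measure the spread between mice within a channel.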

Additional observations from a re-analysis of the deposited data

Results flagged for a closer look

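In groups of 4 mice, 1 mouse stood far from the other 3 in 7 of 99 groups, where chance gives about 1 in 20. In CD8 T cells this was WT 1, which had 17 such cells, for Lef1 (51.8 CPM, others 6.33 to 13.9), S1pr1 (58.2 CPM, others 8.61 to 10.8), Bach2 (38.8 CPM, others 11.1 to 13.4) and Slamf6 (71.2 CPM, others 13.4 to 16.4). Lef1 in conventional CD4 T cells of CaMKK2 KO 3 was 24.6 CPM (others 59.1 to 65.9). Il7r in macrophages of CaMKK2 KO 2 was 117 CPM (others 20.1 to 34.1), and Klf2 in classical monocytes of the same mouse was 277 CPM (others 154 to 166).

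Outside every class, the 910 ungated cells held Il7r at a mean of 139 CPM, with 77.0 to 236 CPM over the mice. Of these cells 226 had an Il7r UMI, 12 of them with at least 5 UMIs of a list for group-2 innate lymphoid cells and 44 with at least 3 UMIs of the T-cell list.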

How the results depend on the processing

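Of 1515 values of the 8 genes under alternatives, 1459 stayed on their side of the threshold, with no change of sign among those called, 35 lost the call, 20 gained one and 1 reversed: S1pr1 in regulatory against conventional CD4 T cells, 0.14 with at least 20 cells per mouse. Among values called in neither, 62, of 19 results, changed sign. Counts of called genes became 1 in NK cells with outlying cells kept, 0 in B cells with doublet candidates kept, 0 in classical monocytes with classes from clusters, 2 in macrophages with DESeq2, with doublet candidates kept or with clusters, 2 for the Havcr2 split at 200 UMIs (fewer genes tested), and 2, 1 and 1 for the interaction at 10 UMIs, with a stricter gate and with clusters. Without 1 mouse the count ranged from 0 to 1 in CD8 and regulatory T cells, 0 to 3 in NK cells, 0 to 2 in B cells, classical monocytes and the interaction, 0 to 1 in macrophages, and 3 to 6 for regulatory against conventional CD4 T cells. The Slamf6+ Havcr2- share difference, −8.73 percentage points, was −7.69 without thinning, −5.69 thinned to 4000 UMIs, −1.30 with outlying cells kept, −6.63 with doublet candidates kept, −6.91 with a stricter gate and −14.9 with clusters, and −11.1 to −3.31 without 1 mouse. Of these alternatives, those that left out a WT mouse passed. That pass was fixed in advance, as was the failure without a CaMKK2 KO mouse. All CaMKK2 KO mice were at 0 in the main setting and all WT mice above it. The causes were not tested.

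Counts over all genes moved by more than 1.5 times in some alternatives: 77 to 265 in T cells (211), 70 to 196 in CD8 (153), 11 to 67 in conventional CD4 (32), 18 to 76 in regulatory T cells (47), 119 to 843 in NK cells (285), 7 to 204 in B cells (113), 158 to 713 in macrophages (307), 73 to 305 in classical monocytes (187), 510 to 992 for regulatory against conventional CD4 T cells (806), 94 to 313 for the Havcr2 split (170) and 22 to 176 for the interaction (80). The alternative of at least 20 cells per mouse was not run for conventional CD4 T cells and the interaction. Mice could not be paired across genotypes because the hashtag numbers do not tie mice of one genotype to mice of the other. Comparisons between classes of the same mice, and the interaction, were fitted with mouse as a block. Depth limits low genes most, such as S1pr1 with 91 UMIs in CD8 T cells.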
